A study of Homo sapiens with 12 samples.

Results

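The list of genes of endoplasmic reticulum (ER) translocation and oligosaccharyl transfer holds 34 genes, chosen by symbol for the step they carry out. The rule uses no measured value, but the list was drawn up with earlier results of these data known. Each of the 34 had a row among the 16389 genes of the count table. The list covers the signal recognition particle (SRP) and its receptor, the Sec61 channel, Sec62 and Sec63, the translocon-associated protein (TRAP) complex, the TRAM proteins, signal peptidase, the oligosaccharyltransferase (OST) and HSPA13.

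Secreted and membrane proteins enter the ER through these machines. SRP binds the signal sequence as it leaves the ribosome and hands the ribosome to the SRP receptor, the nascent chain is threaded through the Sec61 channel with the help of TRAP and TRAM, signal peptidase removes the signal sequence, and OST moves a preassembled sugar chain onto asparagine residues. Hepatocytes export much of the plasma's protein, coagulation and complement factors included, and most of those proteins are N-glycosylated. Many of these genes are known targets of the transcription factors XBP1 and ATF6, which match ER capacity to load.

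RNA-seq was performed on HepG2 cells, an established human liver cancer line, in 4 groups of 3 libraries. LG cells were kept in medium with 5.5 mM glucose and HG cells in medium with 20 mM glucose for 48 h. LGV and HGV cells had the same media and were then given 1 mM valproic acid (VPA), a histone deacetylase inhibitor, for 12 h. The labels number the replicates without saying whether they were separate cultures, so p-values measure the spread between these libraries, which may be technical, and neither the labels nor the methods say when untreated cells were collected relative to the VPA period.

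Libraries held between 29798442 and 45572694 counted reads. The detection floor was set at 3 reads, or 0.0713 to 0.112 CPM (counts divided by library size, here scaled with TMM factors), and covers counting error only. All 10 hepatocyte marker genes examined were in the table, with summed levels of 41281 to 42248 CPM in LGV and 48726 to 63845 CPM in the other groups. Of endothelial markers 2 of 4 had a row, of leukocyte markers 2 of 5 and of fibroblast or stellate markers 2 of 6. The endothelial sum was 2.3 to 2.99 CPM in LG, 2.21 to 3.71 in HG, 2.24 to 3.09 in LGV and 3.83 to 4.85 in HGV. The leukocyte sum was 1.65 to 3.42 CPM in LG, 4.98 to 5.56 in HG, 3.36 to 3.79 in LGV and 6.02 to 6.41 in HGV. The fibroblast or stellate sum was 37.9 to 58.3 CPM in LG, 18.8 to 29.3 in HG, 32.2 to 40.5 in LGV and 26.3 to 32.9 in HGV, and the part of these markers in the results was not tested. The leukocyte sum stood apart between low and high glucose with and without VPA and between HG and HGV, the fibroblast or stellate sum between LG and HG, and the endothelial sum between LGV and HGV and between HG and HGV.

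The 34 genes together took 0.762% to 0.914% of the reads in LG, 0.574% to 0.602% in HG, 0.748% to 0.79% in LGV and 0.553% to 0.605% in HGV. The libraries of both low glucose groups therefore lay above those of both high glucose groups. In these bulk samples, fewer cells that use a gene and less RNA of it per cell cannot be told apart. Per kilobase of the Ensembl canonical transcript, the highest LG mean was that of RPN2, an OST subunit, at 618 ± 77.3 CPM per kb (SD, n = 3). DDOST (326), DAD1 (311) and RPN1 (305), which are OST subunits too, came next, ahead of SSR2 (278), SEC61A1 (276) and SEC61B (276 CPM per kb), and neighbours among these 6 did not differ beyond their SDs. At the other end stood SEC61A2 with 1.85 ± 0.414, KRTCAP2 with 4.98 ± 1.18 and TUSC3 with 0.121 ± 0.0707 CPM per kb. TUSC3, an OST subunit with oxidoreductase activity, had 8 to 32 reads in a library, so that differences in it were not detectable at this depth unless large.

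In order to describe the effect of high glucose, HG was compared with LG. Of the 34 genes, 23 were lower in HG and 0 were higher at an FDR of 0.05 or less (edgeR quasi-likelihood test), while 11 did not pass. Over all 15452 genes tested, 12.7% were lower and 12% higher. The median log2 fold change of the members was -0.51, against 0.01 for all genes. The genes that were lower included 2 of 4 Sec61 channel genes, every TRAP and TRAM gene in the list, 3 of 5 signal peptidase genes and 7 of 9 OST genes. Call counts depended on the libraries: 15 members were lower without LG replicate 1 and 26 without LG replicate 3, which had the lowest levels of many members within LG. The 14 genes SRP68, SRPRB, SEC61A1, SEC61B, SSR1, SSR2, SSR3, TRAM1, SPCS3, SEC11C, RPN1, STT3A, STT3B and HSPA13 were called in each leave-one-out fit and under the 9 other settings at this FDR.

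Glucose was compared a second time in cells with VPA (HGV against LGV), in libraries not used for the first comparison. There 21 members were lower and 0 higher (all 16208 genes: 19.5% lower, 21.2% higher), with a median of -0.44 against 0.01 for all genes. Of the 23 and the 21 genes, 18 were lower in both comparisons, against 9.9% of the 15271 genes tested in both (8.85% were higher in both). DAD1, SRP19, SRP68, SRP72 and TRAM2 passed only without VPA, and SEC11A, SEC62 and SEC63 only with VPA. Across the 34 genes, which are not independent replicates, the log2 fold changes of the 2 comparisons had a Pearson r of 0.924 and a Spearman rho of 0.914, and 32 had the same sign. Without HGV replicate 1, 14 members were lower with VPA, and without HGV replicate 2, 25 were. SRPRB, SEC62, SSR2, SPCS2, SEC11A, RPN2 and DDOST lost this call when 1 library or another was left out, and the other 14 kept it.

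**Figure D1:**
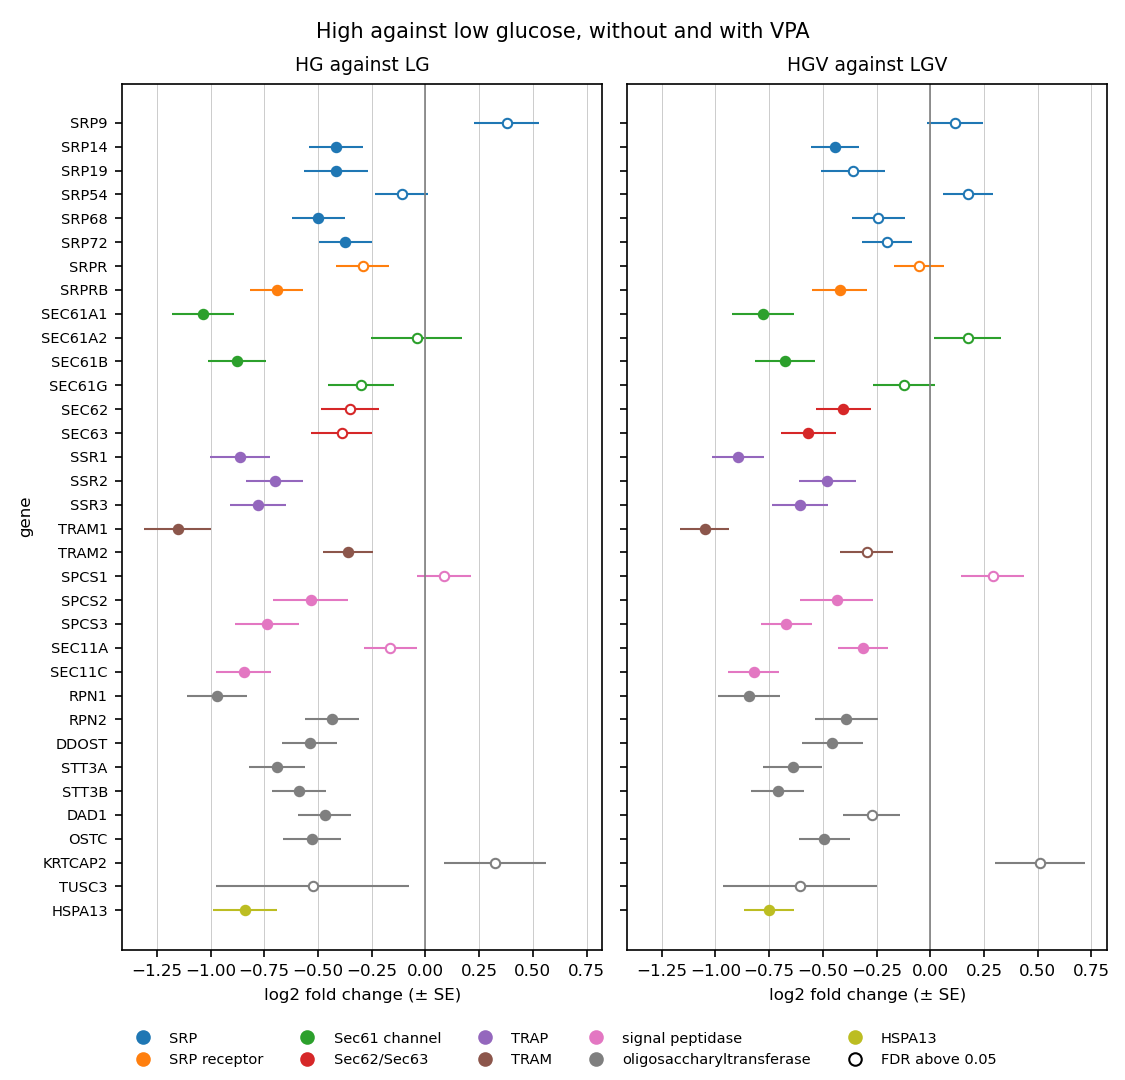
Log2 fold change (± SE) of the 34 genes for HG against LG (left) and HGV against LGV (right), coloured by complex; filled points passed an FDR of 0.05 and open points did not. Filled points all lie left of 0, from -1.15 for TRAM1 to -0.36 for TRAM2 on the left panel and from -1.05 for TRAM1 to -0.31 for SEC11A on the right panel.

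The Sec61 channel is formed by an alpha subunit, which makes the pore and is encoded by SEC61A1 or its paralog SEC61A2, with the small subunits SEC61B and SEC61G. SEC61A1 (chr3:127770484-127790548, plus strand, GRCh37, counted over its exons) had 1046, 1156 and 756 CPM in LG and 460, 467 and 494 in HG. The groups did not overlap, although LG replicate 3 lay well under the other LG libraries, and the gene was 2.05-fold lower in HG (log2 -1.03 ± 0.14 SE, FDR 5.42e-05). With VPA it had 590, 757 and 753 CPM in LGV and 432, 454 and 355 in HGV (log2 -0.78 ± 0.14, FDR 0.000398). SEC61B, which lies beside the pore, had 162, 176 and 129 CPM in LG against 79.5, 76.9 and 94.4 in HG (log2 -0.88 ± 0.14, FDR 0.000171). SEC61G, a small subunit needed for the channel, overlapped between the groups at 83.3 to 124 CPM in LG and 71.3 to 95.3 in HG (log2 -0.30 ± 0.15, FDR 0.155).

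SEC61A2 (chr10:12171636-12211960, plus strand, GRCh37) had 5.27, 3.42 and 5.13 CPM in LG and 4.69, 4.16 and 4.34 in HG, which rest on 137 to 201 reads in a library. Its groups overlapped (log2 -0.04 ± 0.21, FDR 0.907). SEC62 and SEC63, which serve short or slowly translocating proteins beside Sec61, had log2 fold changes of -0.35 ± 0.14 (FDR 0.0634) and -0.39 ± 0.14 (FDR 0.0515) in HG against LG, just outside the threshold. Without LG replicate 3 both passed. With VPA both were lower in high glucose, with log2 fold changes of -0.41 ± 0.13 for SEC62 (FDR 0.0177) and -0.57 ± 0.13 for SEC63 (FDR 0.00178).

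TRAP binds beside Sec61 and helps it open for certain signal sequences. Each of its 3 listed genes was lower in HG. SSR1, the alpha subunit, had 437, 573 and 401 CPM in LG and 287, 228 and 251 in HG (log2 -0.86 ± 0.14, FDR 0.000261). SSR3, the gamma subunit, had 368, 447 and 328 CPM in LG and 226, 206 and 224 in HG (log2 -0.78 ± 0.13, FDR 0.000304). SSR2, the beta subunit, had 340, 339 and 246 CPM in LG and 178, 184 and 197 in HG (log2 -0.70 ± 0.13, FDR 0.00104). In no case did LG and HG overlap, as in 25 of the 34 members and 41.2% of all genes tested, and LG replicate 3 was the lowest LG library for each. With VPA the differences were -0.89 ± 0.12 for SSR1, -0.61 ± 0.13 for SSR3 and -0.48 ± 0.13 for SSR2, each of which passed the test. Exons on the other strand overlap 25.4% of the SSR3 and 14.7% of the SSR2 transcript, and whether strand was used in counting is not stated.

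Promoters of the members were searched because XBP1 and ATF6 are known to act through short promoter elements. Shown are those of the channel paralogs, of the TRAP genes that fell together, and of SRP19 and SEC62, whose windows held a searched element. The windows of the other members are not shown. RefSeq windows from 250 bases before to 50 bases from the annotated start (GRCh38.p14) were found for 28 of the 34 genes. No window was matched for SRPR, TRAM1, SPCS1, RPN1, STT3B and TUSC3, so these 6 genes were not searched. Only the first window listed for each gene symbol was searched, so a motif at another start of the same gene would be missed. The windows were searched on both strands for the ER stress response element ERSE (CCAAT and CCACG set 9 bases apart). ERSE-II (ATTGG and CCACG set 1 base apart) and the unfolded protein response element TGACGTGG were searched for as well. ERSE and ERSE-II were in 0 of the 28 windows and in 0.0806% and 0.0549% of all 27305 promoters. TGACGTGG was in 2 of the 28, SRP19 and SEC62, and in 0.795% of all promoters. The parts CCAAT and CCACG alone, searched after this was seen, were in 14 and 18 of the 28 windows, and in 35.7% and 37.9% of all promoters; each TGACGTGG match holds a CCACG match on the other strand. Among the 20 windows of genes lower in HG, CCAAT was in 10 and CCACG in 12. Of the genes not called there, SRP9, SRP54, SEC61G and KRTCAP2 had windows with CCAAT. Windows with CCACG were those of SRP9, SEC61A2, SEC61G, SEC62, SEC63 and SEC11A, so neither part was particular to the lower genes. Capitals mark the bases of these matches on either strand, 5′ to 3′ in the gene's direction.
SEC61A1 promoter, chr3:128051391-128051690, plus strand: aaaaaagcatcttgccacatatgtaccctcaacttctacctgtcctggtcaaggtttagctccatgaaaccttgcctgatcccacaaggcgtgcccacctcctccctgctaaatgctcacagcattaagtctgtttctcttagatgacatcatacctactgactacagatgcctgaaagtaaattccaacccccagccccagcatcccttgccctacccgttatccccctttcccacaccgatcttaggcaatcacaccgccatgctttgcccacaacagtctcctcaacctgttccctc
SEC61A2 promoter, chr10:12129427-12129726, plus strand: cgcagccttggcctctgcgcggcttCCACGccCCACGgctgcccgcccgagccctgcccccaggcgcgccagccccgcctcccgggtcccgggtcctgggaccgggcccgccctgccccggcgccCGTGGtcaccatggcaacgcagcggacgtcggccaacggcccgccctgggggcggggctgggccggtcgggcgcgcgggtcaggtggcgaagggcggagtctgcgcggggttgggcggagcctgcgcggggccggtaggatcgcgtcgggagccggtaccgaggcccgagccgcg
SSR1 promoter, chr6:7313150-7313449, minus strand: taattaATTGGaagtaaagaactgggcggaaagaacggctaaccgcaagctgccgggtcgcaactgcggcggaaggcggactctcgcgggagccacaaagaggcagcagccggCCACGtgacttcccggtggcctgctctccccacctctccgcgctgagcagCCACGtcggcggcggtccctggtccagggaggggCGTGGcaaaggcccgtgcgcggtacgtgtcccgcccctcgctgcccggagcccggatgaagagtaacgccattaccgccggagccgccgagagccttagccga
SSR2 promoter, chr1:156020902-156021201, minus strand: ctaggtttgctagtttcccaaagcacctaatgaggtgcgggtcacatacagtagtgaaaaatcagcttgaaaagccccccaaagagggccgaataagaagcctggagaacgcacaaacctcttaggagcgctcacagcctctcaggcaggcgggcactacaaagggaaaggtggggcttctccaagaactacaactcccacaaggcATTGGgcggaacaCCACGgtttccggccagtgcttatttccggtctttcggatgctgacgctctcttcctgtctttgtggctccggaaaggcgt
SSR3 promoter, chr3:156555068-156555367, minus strand: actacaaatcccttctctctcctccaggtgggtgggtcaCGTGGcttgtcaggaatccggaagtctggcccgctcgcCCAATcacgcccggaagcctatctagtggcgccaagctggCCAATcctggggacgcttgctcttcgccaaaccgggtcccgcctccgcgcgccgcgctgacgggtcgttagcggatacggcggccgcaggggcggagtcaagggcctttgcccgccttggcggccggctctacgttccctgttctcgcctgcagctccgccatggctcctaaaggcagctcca
SRP19 promoter, chr5:112861037-112861336, plus strand: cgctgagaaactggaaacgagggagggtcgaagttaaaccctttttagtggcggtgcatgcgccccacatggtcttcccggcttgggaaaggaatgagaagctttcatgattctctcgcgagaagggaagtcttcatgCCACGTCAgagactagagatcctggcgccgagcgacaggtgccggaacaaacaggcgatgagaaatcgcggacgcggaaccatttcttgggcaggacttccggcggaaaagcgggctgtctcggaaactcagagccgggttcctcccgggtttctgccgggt
SEC62 promoter, chr3:169966557-169966856, plus strand: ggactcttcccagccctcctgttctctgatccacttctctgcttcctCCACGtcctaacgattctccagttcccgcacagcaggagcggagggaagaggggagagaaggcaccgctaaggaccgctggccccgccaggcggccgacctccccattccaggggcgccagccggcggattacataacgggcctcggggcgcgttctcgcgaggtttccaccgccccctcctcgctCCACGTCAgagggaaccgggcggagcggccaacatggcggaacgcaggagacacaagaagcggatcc

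The SEC61A1 window held none of these letters, and any other start of that gene was not searched. The SEC61A2 window held CCACG 3 times, and that of SSR1 held CCAAT once and CCACG 3 times. The SSR2 window held CCAAT and CCACG once each, and that of SSR3 held CCAAT in 2 places and CCACG once. SRP19, whose window held TGACGTGG, was lower in HG, and SEC62, whose window also held it, did not pass there.

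TRAM1, a membrane protein that contacts the nascent chain beside Sec61, had the largest change of the 34 genes in both glucose comparisons. Its levels were 251, 302 and 195 CPM in LG and 131, 90.1 and 111 in HG, without overlap, and it was 2.22-fold lower in HG (log2 -1.15 ± 0.16, FDR 4.35e-05). With VPA it had 195, 211 and 211 CPM in LGV and 99.2, 101 and 101 in HGV (log2 -1.05 ± 0.12, FDR 3.25e-06). TRAM2, its paralog, had 457, 459 and 404 CPM in LG and 339, 349 and 326 in HG (log2 -0.36 ± 0.12, FDR 0.0314). This smaller difference did not pass with VPA (log2 -0.30 ± 0.12, FDR 0.0627). In HG against LG the TRAM2 call was lost without LG replicate 1, LG replicate 2 or any HG library. It was also lost with upper quartile factors, library size only or replicate number as a block.

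HSPA13, an Hsp70-like protein bound to microsomes, had 104, 109 and 75.1 CPM in LG and 61.8, 45 and 51.7 in HG, and was 1.79-fold lower in HG (log2 -0.84 ± 0.15, FDR 0.000534). With VPA its log2 fold change was -0.75 ± 0.11 (FDR 7.17e-05).

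Of the SRP genes, 4 of 6 were lower in HG. SRP68, which with SRP72 forms a heterodimer on the SRP RNA, had 286, 288 and 231 CPM in LG and 181, 191 and 189 in HG (log2 -0.50 ± 0.12, FDR 0.0065). SRP14 (log2 -0.42 ± 0.13), SRP19 (-0.42 ± 0.15) and SRP72 (-0.37 ± 0.12) were lower by less, and each of these calls was lost in 4 or 5 of the 6 leave-one-out fits and with library size only or upper quartile factors. SRP54, the GTPase that binds the signal sequence, overlapped between the groups at 153 to 179 CPM in LG and 131 to 164 in HG (log2 -0.11 ± 0.12, FDR 0.545). SRP9 was the member with the highest log2 fold change, 0.38 ± 0.15 (FDR 0.0739), and it passed as higher without LG replicate 2, without LG replicate 3, and with library size only or upper quartile factors. In 60.8% of its transcript, 50 nt windows recur elsewhere in the genome, so its count is uncertain, as are those of SPCS2 (40.7%), OSTC (18.8%), SRP72 (11.7%) and SRP14 (10.3%). With VPA only SRP14 was lower in high glucose (log2 -0.44 ± 0.11, FDR 0.00437). Of the receptor's subunits, SRPRB, which anchors it in the membrane, had 192, 195 and 162 CPM in LG and 108, 108 and 119 in HG (log2 -0.69 ± 0.12, FDR 0.000532), whereas SRPR, the alpha subunit, did not pass (log2 -0.29 ± 0.12, FDR 0.0916).

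Signal peptidase exists with either of 2 catalytic subunits, SEC11A or SEC11C. SEC11C had 154, 181 and 155 CPM in LG and 92.1, 78.2 and 98.1 in HG (log2 -0.85 ± 0.13, FDR 0.000127), and 151, 158 and 155 in LGV against 80.5, 97.1 and 88.2 in HGV (log2 -0.82 ± 0.12, FDR 4.37e-05). SEC11A overlapped between LG (172 to 204 CPM) and HG (145 to 172 CPM), with a log2 fold change of -0.16 ± 0.12 (FDR 0.347), and was lower in HGV than in LGV (log2 -0.31 ± 0.12, FDR 0.0402). Of the accessory subunits, SPCS3 was lower in HG (113, 153 and 116 CPM in LG, and 90.9, 61.8 and 74.5 in HG, log2 -0.74 ± 0.15, FDR 0.00159). SPCS2 was lower too (log2 -0.53 ± 0.18, FDR 0.0327), a call lost in 4 of the 6 leave-one-out fits. The SPCS2 call was also lost with library size only or upper quartile factors. SPCS1 had 85.9 to 91.8 CPM in LG and 84.1 to 107 in HG (log2 0.09 ± 0.13, FDR 0.652), and 71.4% of its transcript is overlapped on the other strand by exons of NEK4.

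OST contains 1 of 2 catalytic subunits, STT3A, which acts during translocation at the Sec61 channel, or STT3B, which also acts after it. RPN1, which holds the complex by the ribosome and channel, had 732, 798 and 559 CPM in LG and 317, 356 and 377 in HG, a 1.96-fold difference (log2 -0.97 ± 0.14, FDR 8.16e-05). With VPA it had 454, 583 and 550 CPM in LGV and 283, 349 and 264 in HGV (log2 -0.84 ± 0.14, FDR 0.000189). The groups stood apart in both comparisons; with VPA this held for 24 of the 34 members and 51.4% of all genes.

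STT3A had 643, 723 and 525 CPM in LG and 397, 366 and 392 in HG (log2 -0.69 ± 0.13, FDR 0.000898), and STT3B had 256, 288 and 255 in LG and 201, 151 and 172 in HG (log2 -0.59 ± 0.13, FDR 0.00243). Both were also lower in HGV than in LGV, with log2 fold changes of -0.64 ± 0.14 and -0.71 ± 0.12. The shared subunits DDOST (log2 -0.54 ± 0.13), DAD1 (-0.47 ± 0.12) and RPN2 (-0.43 ± 0.12) were lower in HG. So was OSTC (-0.53 ± 0.13), a subunit of the STT3A form. In the 6 leave-one-out fits RPN2 kept its call in 1, DAD1 and OSTC in 4 each, and DDOST in 5. KRTCAP2, which is also of the STT3A form, had 2.05 to 3.27 CPM in LG and 2.66 to 3.58 in HG (log2 0.32 ± 0.24, FDR 0.337), and 83.7% of its transcript is shared with exons of another gene on the same strand, so its count is uncertain. Such overlap is 21.5% for DDOST and 15.8% for SRP19. TUSC3 had a log2 fold change of -0.52 ± 0.45 (FDR 0.416).

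**Figure D2:**
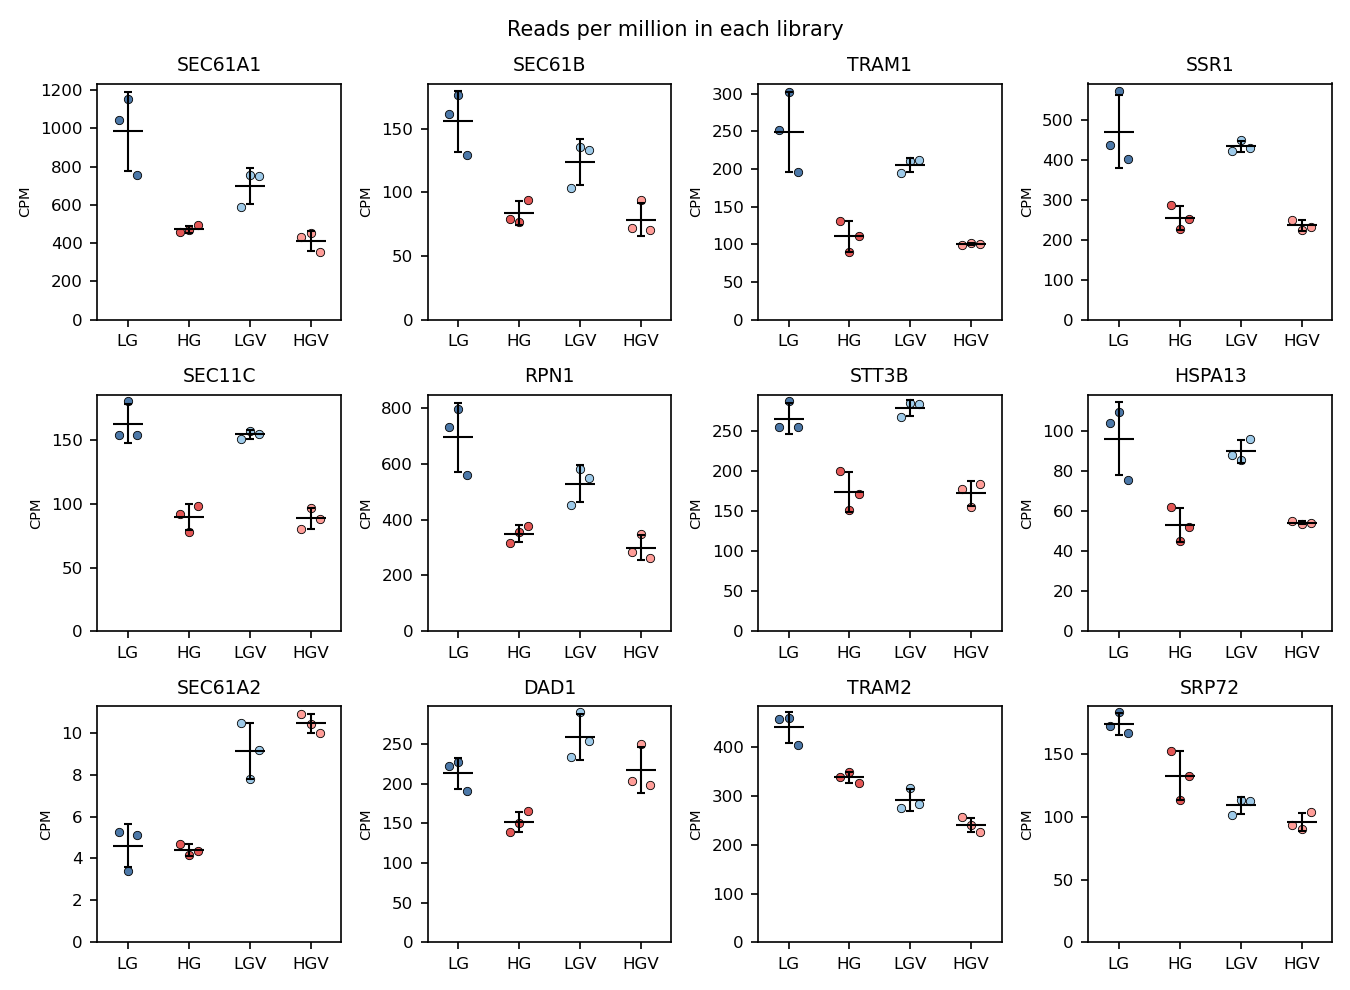
CPM (scaled with TMM factors) of 12 members in each of the 12 libraries, with the mean and SD of each group as bars. SEC61A1, SEC61B, TRAM1, SSR1, SEC11C, RPN1, STT3B and HSPA13 were lower in both high glucose groups, SEC61A2 (3.42 to 5.27 CPM without VPA) stood at 7.79 to 10.9 CPM in both VPA groups, and TRAM2 and SRP72 were lower with VPA at both glucose levels.

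The effect of VPA was compared at each glucose level. In high glucose (HGV against HG), 4 members were higher and 6 lower, while in all 16188 genes 25.8% were higher and 20.2% lower, so the members' shares, 11.8% and 17.6%, were not above those of all genes. The median log2 fold change was -0.10, against 0.02 for all genes. The split depended on scaling, since with library size only or upper quartile factors 4 were higher and 3 lower. In low glucose (LGV against LG), 1 member was higher and 10 lower (all 15944 genes: 21.7% higher, 19.9% lower), with a median of -0.22 against -0.01. With library size only, 3 were higher and 6 lower, and with upper quartile factors 2 and 7. Counts without 1 library ran from 6 (without HG replicate 3 or HGV replicate 3) to 15 (without HGV replicate 2) in high glucose, and from 7 (without LGV replicate 3) to 16 (without LG replicate 3) in low glucose. In the 2 comparisons, which share no library, 6 members were lower in both and 1 was higher in both. Of the 15743 genes tested in both, 14.8% were lower and 17.5% higher, so the members lower in both were near the share of all genes. SRP14, SRP54, SRP68, SRPR and KRTCAP2 in high glucose, and SRP14, SEC61A1, SPCS2 and OSTC in low glucose, lost their calls in at least 1 leave-one-out fit.

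SEC61A2 was the member higher in both. It had 10.4, 7.79 and 9.15 CPM in LGV against 5.27, 3.42 and 5.13 in LG (log2 1.00 ± 0.21, FDR 0.00142), and 10.9, 10.4 and 10 in HGV against 4.69, 4.16 and 4.34 in HG (log2 1.25 ± 0.14, FDR 1.46e-05). VPA and untreated libraries did not overlap at either glucose level, as in 13 of the 34 members in each comparison and in 50.5% of all genes in low and 54.6% in high glucose. SEC61A1 moved the other way in low glucose, with a log2 fold change of -0.48 ± 0.16 (FDR 0.0266) that was lost with library size only and in 4 of the 6 leave-one-out fits, and it had -0.20 ± 0.11 (FDR 0.178) in high glucose.

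The 6 members lower with VPA at both glucose levels were SRP14, SRP68, SRP72, SRPR, TRAM2 and STT3A. SRP72 had 102, 113 and 113 CPM in LGV against 173, 184 and 167 in LG (log2 -0.66 ± 0.11, FDR 0.000274), and 93.8, 90.5 and 104 in HGV against 152, 113 and 133 in HG (log2 -0.47 ± 0.12, FDR 0.00678). The log2 fold changes in low and high glucose were -0.61 ± 0.12 and -0.33 ± 0.10 for SRP68, -0.58 ± 0.13 and -0.31 ± 0.09 for SRPR, and -0.31 ± 0.11 and -0.30 ± 0.11 for SRP14. TRAM2 had 275, 317 and 283 CPM in LGV (log2 -0.58 ± 0.12, FDR 0.0013) and 256, 239 and 227 in HGV (log2 -0.49 ± 0.10, FDR 0.00133), under every untreated library of the same glucose level. STT3A had log2 fold changes of -0.53 ± 0.14 (FDR 0.00858) and -0.45 ± 0.11 (FDR 0.00419). In low glucose SRPRB (log2 -0.43 ± 0.12), SPCS2 (-0.49 ± 0.17) and OSTC (-0.34 ± 0.13) were lower as well.

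DAD1, a small OST subunit, had 203, 250 and 198 CPM in HGV against 139, 150 and 165 in HG (log2 0.52 ± 0.12, FDR 0.00307). It had 233, 290 and 254 CPM in LGV against 222, 227 and 190 in LG (log2 0.29 ± 0.13, FDR 0.0747), which did not pass. SRP54 was higher in HGV than in HG, with 204, 198 and 194 CPM against 164, 131 and 156 (log2 0.40 ± 0.11, FDR 0.00849), a call lost without HG replicate 2. KRTCAP2 was higher in HGV (log2 0.50 ± 0.18, FDR 0.0359), a call that 4 of the 6 leave-one-out fits did not give. DESeq2 and the single fit of 12 libraries did not give this call either. No TRAP, Sec62/Sec63 or HSPA13 gene passed at either glucose level, with log2 fold changes between -0.31 (SEC63) and 0.03 (HSPA13 and SSR2).

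**Figure D3:**
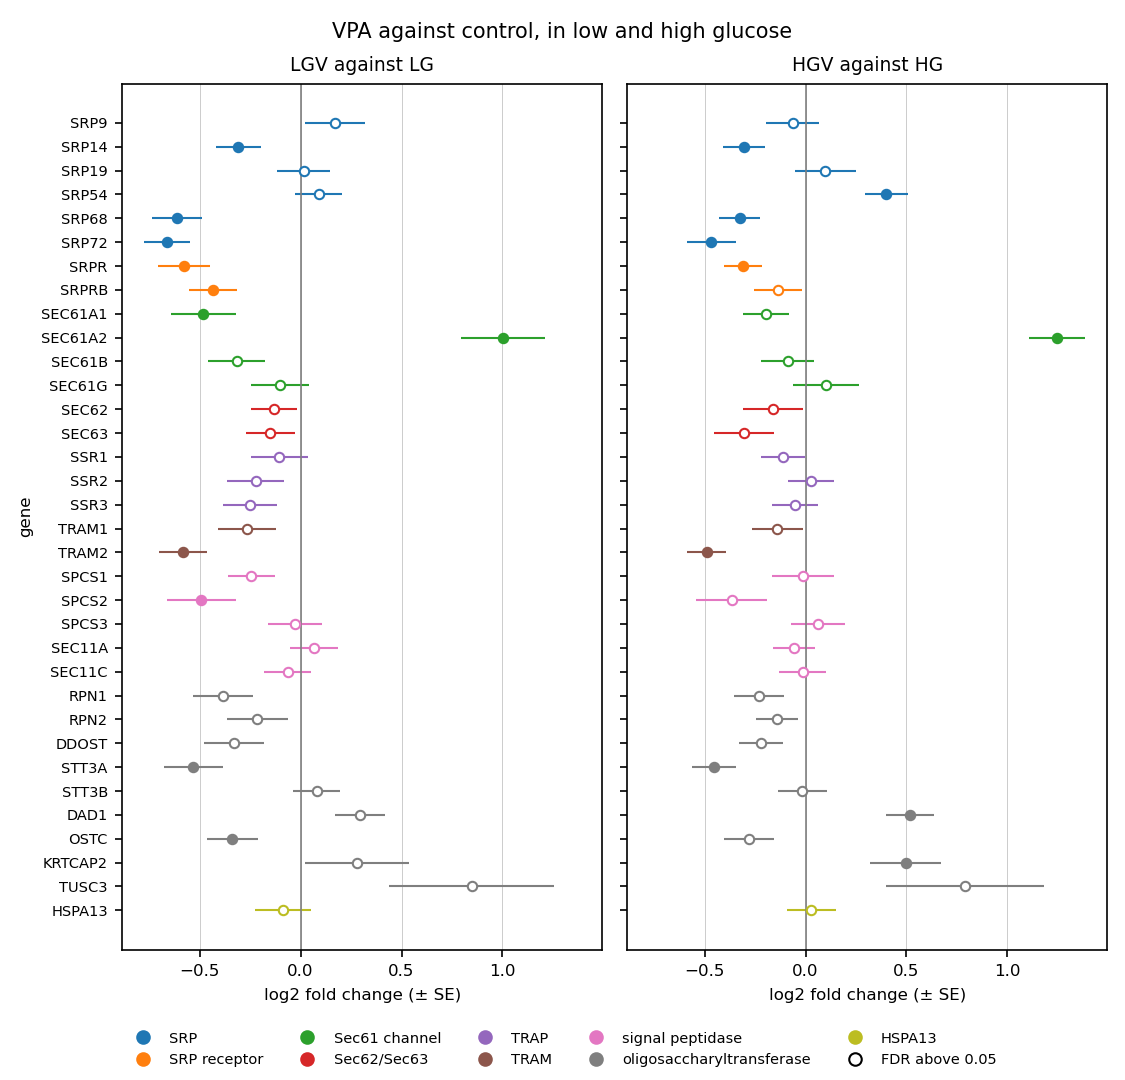
Log2 fold change (± SE) of the 34 genes for LGV against LG (left) and HGV against HG (right), coloured by complex; filled points passed an FDR of 0.05 and open points did not. SEC61A2 stands farthest to the right (1.00 and 1.25) while the TRAP genes lie between -0.25 and 0.03 in both panels.

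Whether the VPA effect depended on glucose was tested as an interaction over the 12 libraries with the edgeR quasi-likelihood test. It was called for 0 of the 34 members, and 0 had an unadjusted p of 0.05 or less. The likelihood ratio test and DESeq2 called 0 as well, and over all 16389 genes 0.0427% were called. The interaction terms of the members ran from -0.22 to 0.32 on the log2 scale, with standard errors of 0.15 to 0.62. Differences of this size could be missed here, since 137 of 200 simulated 2-fold interactions were recovered. The calls made at 1 glucose level only, such as DAD1, are thus not shown to differ between glucose levels.

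Where 2 paralogs serve the same step, the ratio of their reads within a library does not depend on scaling between libraries. The ratio SEC11A/SEC11C was 1.12, 1.13 and 1.12 in LG and 1.87, 1.85 and 1.69 in HG, and 1.22, 1.27 and 1.18 in LGV against 1.84, 1.68 and 1.74 in HGV. Every high glucose library stood above every low glucose library, by a log2 of 0.60 ± 0.033 SE (exact two-sided permutation p = 0.005 within VPA levels, the smallest the design allows, 0.008 after adjustment over 8 tests). VPA moved this ratio by 0.04 ± 0.033 (exact p = 0.34, adjusted 0.389).

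For the OST catalytic subunits the ratio moved with VPA. STT3A/STT3B was 2.52, 2.51 and 2.06 in LG, 1.98, 2.42 and 2.29 in HG, 1.39, 1.67 and 1.59 in LGV and 1.55, 2.02 and 1.37 in HGV. The log2 difference was -0.53 ± 0.11 with VPA (exact permutation p = 0.01, adjusted 0.0133), with 1 HGV library above the lowest HG library, and -0.0034 ± 0.11 with glucose (exact p = 0.985).

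The ratio TRAM1/TRAM2 was 0.55, 0.658 and 0.484 in LG, 0.388, 0.258 and 0.34 in HG, 0.708, 0.666 and 0.748 in LGV and 0.388, 0.424 and 0.446 in HGV. The log2 difference was -0.77 ± 0.11 with high glucose and 0.35 ± 0.11 with VPA (exact permutation p = 0.005 and adjusted 0.008 for each). SEC61A1/SEC61A2 ran from 147 to 337 in LG and 97.7 to 113 in HG, and from 56.5 to 96.9 in LGV and 35.4 to 43.5 in HGV. Its log2 difference was -0.98 ± 0.22 with glucose and -1.46 ± 0.22 with VPA (exact permutation p = 0.005 and adjusted 0.008 for each).

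**Figure D4:**
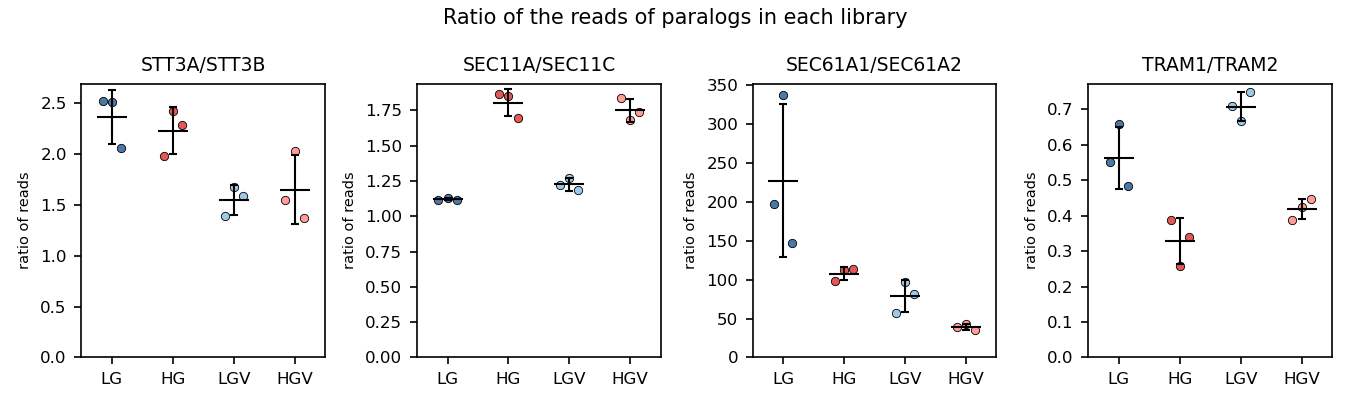
Ratio of the reads of 4 pairs of paralogs in each of the 12 libraries, with the mean and SD of each group as bars. SEC11A/SEC11C separates low glucose (1.12 to 1.27) from high glucose (1.68 to 1.87), while STT3A/STT3B is lower with VPA.

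Further genes of the same pathways, outside the 34, were examined as 4 lists. Of 16 other translocon and OST genes tested, 9 were lower in HG (56.2%) and 0 higher, against 12.7% and 12% of all genes, with a median log2 fold change of -0.40. MAGT1, the oxidoreductase subunit of the STT3B form of OST, had -1.10 ± 0.14 (FDR 2.67e-05), and SSR4, the delta subunit of TRAP, -0.90 ± 0.13 (FDR 9.49e-05). With VPA in high glucose 4 of the 16 were higher (25%) and 2 lower (12.5%), not above the 25.8% and 20.2% of all genes. The largest changes among those called were in TMEM258, an OST subunit, at -0.65 ± 0.14 and CKAP4, an ER sheet protein, at -0.60 ± 0.13.

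Of 24 genes that build the lipid-linked sugar chain, the substrate of OST, 7 were lower in HG (29.2%, against 12.7% of all genes) and 0 higher, with a median of -0.05. The largest were ALG5, which makes glucosyl dolichol phosphate, at -0.66 ± 0.15, and ALG3, a mannosyltransferase, at -0.61 ± 0.13. With VPA in high glucose 8 were lower (33.3%) and 2 higher (8.33%), against 20.2% and 25.8% of all genes. MPDU1, needed for the use of dolichol-linked mannose, was lower, with a log2 fold change of -1.80 ± 0.13 (FDR 4e-07), as was ALG14, which recruits the enzyme that adds the second sugar, with -1.26 ± 0.14 (FDR 1.58e-05). In low glucose 11 of the 24 were lower with VPA (45.8%) and 0 higher, against 19.9% and 21.7% of all genes. In HGV against LGV 6 were lower and 6 higher (25% each), near the 19.5% and 21.2% of all genes.

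Of 7 genes that insert tail-anchored proteins by a route without Sec61, 3 were lower in HG (42.9%, against 12.7% of all genes) and 0 higher, GET4 with a log2 fold change of -0.81 ± 0.22 and BAG6, a chaperone of that route, with -0.45 ± 0.14. With VPA in high glucose WRB, a receptor subunit of that route, was higher (log2 0.73 ± 0.10) and UBL4A, a partner of BAG6 and GET4, lower (log2 -0.48 ± 0.12), with 1 higher (14.3%) and 2 lower (28.6%) in all, against 25.8% and 20.2% of all genes. Of 9 tested genes of the ER membrane protein complex, an insertase that works beside Sec61, 1 was lower in HG (EMC3, log2 -0.63 ± 0.13) and 0 higher, and this 11.1% is near the 12.7% of all genes. With VPA, 4 of the 9 were lower in HGV than in LGV (44.4%) and 0 higher, against 19.5% and 21.2% of all genes. In HGV against HG EMC3 was higher (log2 0.33 ± 0.10) and EMC1 lower (log2 -0.55 ± 0.10), or 11.1% each against 25.8% and 20.2% of all genes.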

How the data were processed

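The authors deposited raw read counts per Ensembl gene for 12 libraries of HepG2 cells. They trimmed poly(A)-selected 50 nt single-end reads, aligned them to GRCh37 with STAR, and counted them with featureCounts at a mapping quality threshold of 10, so reads that map to several places were largely left out. Genes averaging under 10 reads had been removed. The library kit was directional, and the strand setting of the counting is not given in the sources used here. No column of per-sample values was left unmapped (0 unused).

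Groups followed the sample labels. The 34 members and the further lists were chosen with earlier results of these data known. All members could be named, and from each further list the 2 genes with the largest absolute log2 fold change among those called in HG against LG and in HGV against HG. Genes were tested with edgeR 4.0.16 (R 4.3.3, limma 3.58.1): TMM factors, a mean of at least 10 reads in the libraries fitted, glmQLFit and glmQLFTest, and Benjamini-Hochberg adjustment over all genes tested, called at an FDR of 0.05. Each comparison used its own 6 libraries, and the interaction used 12. CPM values are scaled with TMM factors. Paralog ratios (0.5 reads added) were tested by exact permutation of one factor within levels of the other (400 arrangements). Alternatives were other scalings, edgeR's likelihood ratio test, DESeq2 1.42.0, other filters, replicate number as a block, 1 fit of 12 libraries, an FDR of 0.01 and leaving out each library.

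On simulated data with 200 genes changed 2-fold, the test recovered 184 for HG against LG (15419 genes, 9 false calls). It recovered 189 for HGV against HG (16125 genes, 9 false calls) and 179 for LGV against LG (15884 genes, 12 false calls). For HGV against LGV it recovered 185 (16154 genes, 9 false calls) and for the interaction 137 (16256 genes, 11 false calls). The changed genes had a mean of at least 50 reads, so recovery of smaller changes or of genes with fewer reads was not tested. Replicate libraries differed beyond counting noise, so none was taken as a duplicate. Gene positions, exon overlap and repeated 50 nt windows came from GENCODE v44 lifted to GRCh37, a newer annotation than the authors' Ensembl release, and promoters from RefSeq on GRCh38.p14. Plots were drawn with matplotlib 3.10.9.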

Additional observations from a re-analysis of the deposited data

How the results depend on the processing

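Same-number correlations of 3 libraries in a group cannot settle whether replicate numbers pair the libraries. No comparison had all 3 over 0.1, and in 0 or 1 of 3 cases per comparison did a library correlate best with its own number. The mean was -0.0972 for the same number against 0.0502 for different numbers in HG against LG. It was higher for the same number in HGV against HG (0.0846 against -0.046) and LGV against LG (0.0382 against -0.0196). The same held in HGV against LGV (0.0833 against -0.0415). With replicate number as a block, 20 members were called for HG against LG and 24 for HGV against LGV. Members called were 12 for VPA at each glucose level and 0 for the interaction (13 of all genes). Genes called went from 3813 to 3351 in HG against LG and from 7456 to 8229 in HGV against HG. They went from 6638 to 6971 in LGV against LG and from 6604 to 7308 in HGV against LGV. Leaving out 1 library gave 15 to 27 members in HG against LG (1933 to 5338 genes of all, 3813 with every library), 6 to 15 in HGV against HG, 7 to 16 in LGV against LG, 14 to 25 in HGV against LGV, and 1 to 217 interaction genes (7 with every library). At an FDR of 0.01, 1852 genes were called in HG against LG, 4263 in HGV against LGV and 1 for the interaction, with 6 members in HGV against HG and 7 in LGV against LG. The interaction was called for 202 genes by the likelihood ratio test, 162 by DESeq2 and 1 with library size only; the cause was not tested. Scaling by library size only moved the median of all genes to 0.106 and 0.0955 for glucose without and with VPA, and to 0.156 and 0.146 for VPA in low and high glucose. Within VPA levels the SEC11A/SEC11C ratio differed with glucose by 0.69 without and 0.51 with VPA, and within glucose levels with VPA by 0.129 in low and -0.0429 in high glucose; these are smaller samples of the same libraries. Of the members' single log2 fold changes under the alternatives, 126 lost and 53 gained the call, none that was called changed sign, and 113 that were not called did. KRTCAP2, TUSC3 and SEC61A2 rest on the fewest reads.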
